A study of Mus musculus with 13 samples.

Results

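Among the thymic cells captured with the Parse kits, a small set carried few transcripts and an unusually large share of them in ribosomal protein mRNA, and these are called RP-rich cells here. A cell was taken when it had 500 to 2500 unique molecular identifiers (UMIs, each 1 captured transcript) and at least 1.5% of them in genes whose symbol starts with Rpl or Rps followed by a digit, pseudogenes left out. The rule took 219 of the 24785 thymic cells in that UMI range, from 61923 cells of 8 thymic lobes and 148709 cells in the whole series. They were compared with the 23429 cells of the same lobes and UMI range in which those genes held under 1.0%, and the 1137 cells between both limits were left out.

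The cells came from lobes that were mashed, digested with collagenase/dispase and DNase I, fixed and barcoded by split-pool labelling, in which cells receive a well barcode in successive rounds. All lobes were from control (unstressed) 2-month-old female C57BL/6N mice. The Parse WT kit held 4 lobes of 2 mice, here WT 1 to WT 4, beside other samples that are not used here, and the Parse Mini kit held 4 lobes of 2 other mice, here Mini 1-A, 1-B, 2-A and 2-B. Both lobes of a mouse are technical replicates of it, so 4 lobes are not 4 independent animals. The tests below take the lobe as the unit, and none measures the spread between mice. The lobes held 28057164 to 124106974 UMIs in all. Of 41838 WT cells, 21428 shared their well combination with a cell of another sublibrary (2720 of 20085 Mini cells), but no full barcode with its sublibrary occurred more than once.

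Ribosomal proteins join ribosomal RNA in the small and large ribosomal subunits, and their genes give some of the most abundant mRNAs of a cell. These mRNAs are short, stable and cytoplasmic, and most begin with a terminal oligopyrimidine (TOP) stretch, by which growth signals control their translation as a group. In the thymus, dividing precursors pass into small, resting CD4+ CD8+ double-positive thymocytes that rearrange the T cell receptor alpha locus with the RAG recombinase, and the few that are selected mature into single-positive cells.

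Most RP-rich cells carried thymocyte markers: 150 of 219 (68.5%) had at least 3 of 12 double-positive markers, such as Rag1, Themis and Cd4, against 90.7% of the comparison cells (69.0% against 90.7% within WT 2, 3 and 4). The low RNA content was set by the rule and not found. RP-rich cells had a median of 1095 UMIs (612 to 2495) and comparison cells 1454, while 185 of 37137 cells above 2500 UMIs also had 1.5% or more. Fewer than 3 genes of every marker list were found in 22 RP-rich cells (10.0%, against 2.31%). No doublet caller was run here.

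RP-rich cells were rare and unevenly spread over the lobes. WT 2 held 92 among 5224 cells of 500 to 2500 UMIs (1.76%, exact 95% binomial interval 1.42 to 2.16), WT 4 held 77 of 4932 (1.56%, 1.23 to 1.95) and WT 3 held 34 of 4223 (0.805%, 0.558 to 1.12). WT 1 held 0 of 1441, with an exact interval up to 0.256% (0.208% by the limit of 3 counts). In the Mini kit the lobes held 5 of 2821 (0.177%), 7 of 1740 (0.402%), 3 of 2479 (0.121%) and 1 of 1925 (0.0519%). Thus 203 of the 219 cells were from 3 WT lobes, and the intervals of these 3 lobes lay above that of WT 1. The mean share was 1.03% ± 0.802 (SD, n = 4) in WT lobes and 0.188% ± 0.152 in Mini lobes, a difference of -0.844 percentage points that did not exceed the spread between lobes (two-sided exact permutation test, p = 0.143; the smallest p this design allows is 0.0286). These intervals cover counting error only.

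In WT 2, 3 and 4 both first-round wells held RP-rich cells: C9 and C10 of WT 2 had 1.74% and 1.78%, C11 and C12 of WT 3 had 0.973% and 0.591%, and D1 and D2 of WT 4 had 1.3% and 2.27%. Both wells of WT 1 and 4 of the 12 Mini wells had none. Over the 8 larger WT sublibraries the share ran from 0.809% to 1.80%, and the smallest sublibrary had 0 of 89 cells. The share also fell with depth in WT cells, from 2.47% in the shallowest cells (500 to under 1000 UMIs) to 0.749% at the upper end of the range used here, and it was 0.784% in the deepest cells of all. A share has a larger counting error in cells of few UMIs, and the part of this in the fall was not tested.

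**Figure D1:**
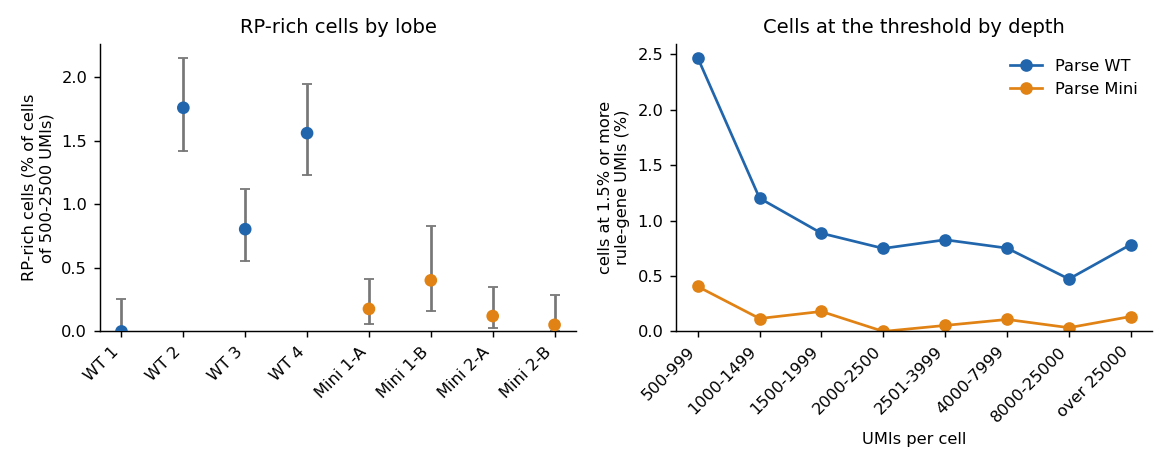
Left, RP-rich cells as a percent of cells of 500 to 2500 UMIs in each lobe, with exact 95% binomial intervals (blue WT, orange Mini). Right, percent of cells at 1.5% or more of rule-gene UMIs against UMIs per cell: WT cells fell from 2.47% to 0.749% across the range used here, and Mini cells stayed at or below 0.405%.

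The values that chose the cells are given as a description. The median rule-gene share was 1.75% (highest 4.60%) in RP-rich cells and 0.424% in comparison cells, or a median of 21 against 6 UMIs. The signal was spread over many genes: the median RP-rich cell had UMIs of 17 of the 100 rule genes (6 to 43), and its most counted rule gene held 11.5% of its rule UMIs. At the limit, the 55 cells from 1.5% to under 1.6% had a median of 1.54%, and the 83 cells just below, from 1.4%, a median of 1.45%. The symbol pattern also took 10 S6 kinase genes, which encode kinases and no ribosomal protein. They held 4.34% of the rule UMIs of WT and 7.07% of those of Mini RP-rich cells, against 14.4% and 26.4% in comparison cells, and 168 cells stayed at 1.5% or more without these and 2 other non-ribosomal genes.

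The marker genes of this set, all ribosomal proteins, were chosen by the rule to be high. Rps12, a small-subunit protein, had 1270.5, 649 and 1329.6 CPM (counts scaled to 1e6 UMIs outside ribosomal RNA) in the RP-rich cells of WT 2, 3 and 4, and 225, 113 and 184 in the comparison cells. Rpl21, of the large subunit, had 914, 1009.9 and 985 against 219.9, 156 and 167 CPM. Rps26, which lies near the mRNA exit of the small subunit, had 724, 649 and 443 against 132, 96.0 and 68.5 CPM. Rpl39, the smallest of the 4 and part of the peptide exit tunnel, had 309, 252 and 295 against 42.4, 35.5 and 33.3 CPM. In these 3 lobes no RP-rich value overlapped a comparison value, a separation that the choice of cells by these genes largely sets and that is not a result. Over the WT lobes together, with WT 1 among the comparison cells, the highest rule genes beside Rps12 and Rpl21 were Rpl13a (1165 against 255 CPM), Rpl4 (1097 against 247), Rps4x (890.4 against 167), Rps24 (777 against 148), Rps23 (729.9 against 117) and Rpl23 (652 against 136). A kinase caught by the pattern, Rps6ka3, had 388 against 316 CPM.

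Start sites are shown for markers and for ribosomal protein genes outside the rule, because TOP mRNAs share a pyrimidine run at the very start of the transcript. Each line gives 15 bases before and 15 bases from the annotated start (RefSeq, GRCm38.p6), read 5′ to 3′ on the gene's strand, with CTTTT or CTTTC in capitals:
Rps12 (chr10:23787195-23787224, minus strand): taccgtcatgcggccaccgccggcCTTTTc
Rps26 (chr10:128626492-128626521, minus strand): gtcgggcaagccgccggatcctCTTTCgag
Rpl39 (chrX:37085208-37085237, minus strand): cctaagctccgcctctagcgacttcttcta
Rplp2 (chr7:141447636-141447665, plus strand): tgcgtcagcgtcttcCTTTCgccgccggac
Fau (chr19:6057932-6057961, plus strand): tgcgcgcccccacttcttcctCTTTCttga
Rpsa (chr9:120127751-120127780, plus strand): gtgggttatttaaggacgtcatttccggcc
Rplp0 (chr5:115559452-115559481, plus strand): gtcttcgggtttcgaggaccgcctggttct
Mki67 (chr7:135716365-135716394, minus strand): gcgggtggcgggcacttgggacgcgggcgg
Rag1 (chr2:101649518-101649547, minus strand): tgtgcactatgggacaagagagcaaggaga

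The capitals mark the letters searched anywhere in the window, and a window with either was counted once. Only in Rplp2 do they begin at the annotated start, and in Rps12, Rps26 and Fau they lie after it. A match alone therefore does not place a pyrimidine run at the start. Of 76 start windows of the ribosomal protein genes in the rule, 22 (28.9%) held one, against 6.96% of all 32851 windows and 6.09% of those of the genes tested below. On the opposite strand the shares were 5.26% and 6.34%. The windows of Rpl39, Rpsa and Rplp0 do not hold these exact letters. Mki67, a proliferation marker, and Rag1, part of the recombinase, are shown as genes of other groups. A match describes the letters only. Rpl21 and Rplp1 had no entry in the table.

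A list of 6 ribosomal protein genes does not match the symbol pattern and was free to differ. It includes Rpsa of the small subunit, the stalk proteins Rplp0, Rplp1 and Rplp2, and Fau, whose product is made as a fusion to a ubiquitin-like protein. Together the listed genes had 2086, 1517 and 2086 CPM (from here on scaled to the UMIs outside ribosomal RNA and rule genes) in RP-rich cells of WT 2, 3 and 4, against 529.6, 409.6 and 417. In the Mini lobes they had 2335, 1543, 1885 and 1802 CPM from only 10, 10, 4 and 1 UMIs, against 205, 198, 177 and 232 CPM. The sum was higher in RP-rich cells in 7 of 7 lobes, with no overlap between the groups.

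UMIs were summed per lobe and class and tested with edgeR's quasi-likelihood test, with the lobe as a block, in the 7 lobes that have RP-rich cells (WT 1 drops out). The test shares its estimate of spread over genes. A very small p, above all in a fit on few lobes, therefore does not measure that gene's own spread between lobes. Across 8174 genes tested, 192 (2.35%) were higher and 260 (3.18%) lower at an adjusted p under 0.05. Of the held-out ribosomal proteins 5 of 5 tested were higher. Rpsa had 610.0, 407 and 657 against 158, 112 and 119.7 CPM in the WT lobes, a log2 fold change of 2.06 ± 0.34 (SE) (adjusted p = 9.73e-07), and it was higher in 7 of 7 lobes. Rplp2 had 464, 370.0 and 392 against 123, 67.5 and 58.3 CPM (2.20 ± 0.32 (SE) log2, adjusted p = 1.57e-08).

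Rplp1 (293, 222 and 266 against 64.7, 62.9 and 55.2 CPM), Fau (488, 333 and 443 against 109, 93.8 and 97.3) and Rplp0 (219.6, 185 and 329 against 68.2, 69.2 and 81.2) were also higher in each of the 3 WT lobes, with log2 fold changes of 2.01, 1.78 and 1.45 and adjusted p of 1.57e-08, 2.14e-05 and 0.00135. In Mini RP-rich cells these 3 genes had 3, 3 and 1 UMIs in total, so their calls rest on the WT lobes. Without WT 2, 3 of the 5 were called.

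Fitted fold changes are read against the whole set, because their median over all genes was -0.39 rather than 0. The RP-rich sums of the Mini lobes held 555 to 6482 UMIs, and their TMM scaling factors were 1.44 to 7.05 against 0.596 to 0.798 in the other sums. With no scaling factors the median was -0.03, with RLE size factors -0.03 and with DESeq2 0.28. Higher genes were 42.5% of the calls, against 65.2% with no scaling, 67.3% with RLE factors and 78.0% with DESeq2. A fit on the 3 WT lobes alone, whose median was -0.21, called 184 genes (1.89%) higher and 374 (3.83%) lower of 9754. Between both fits 117 higher genes (60.9% of the 192, 63.6% of the 184) and 207 lower genes (79.6% of the 260, 55.3% of the 374) were shared. Taking all cells at 1.0% or more as members, an alternative added after seeing the data, gave 686 higher (8.2%) and 695 lower (8.3%) genes.

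**Figure D2:**
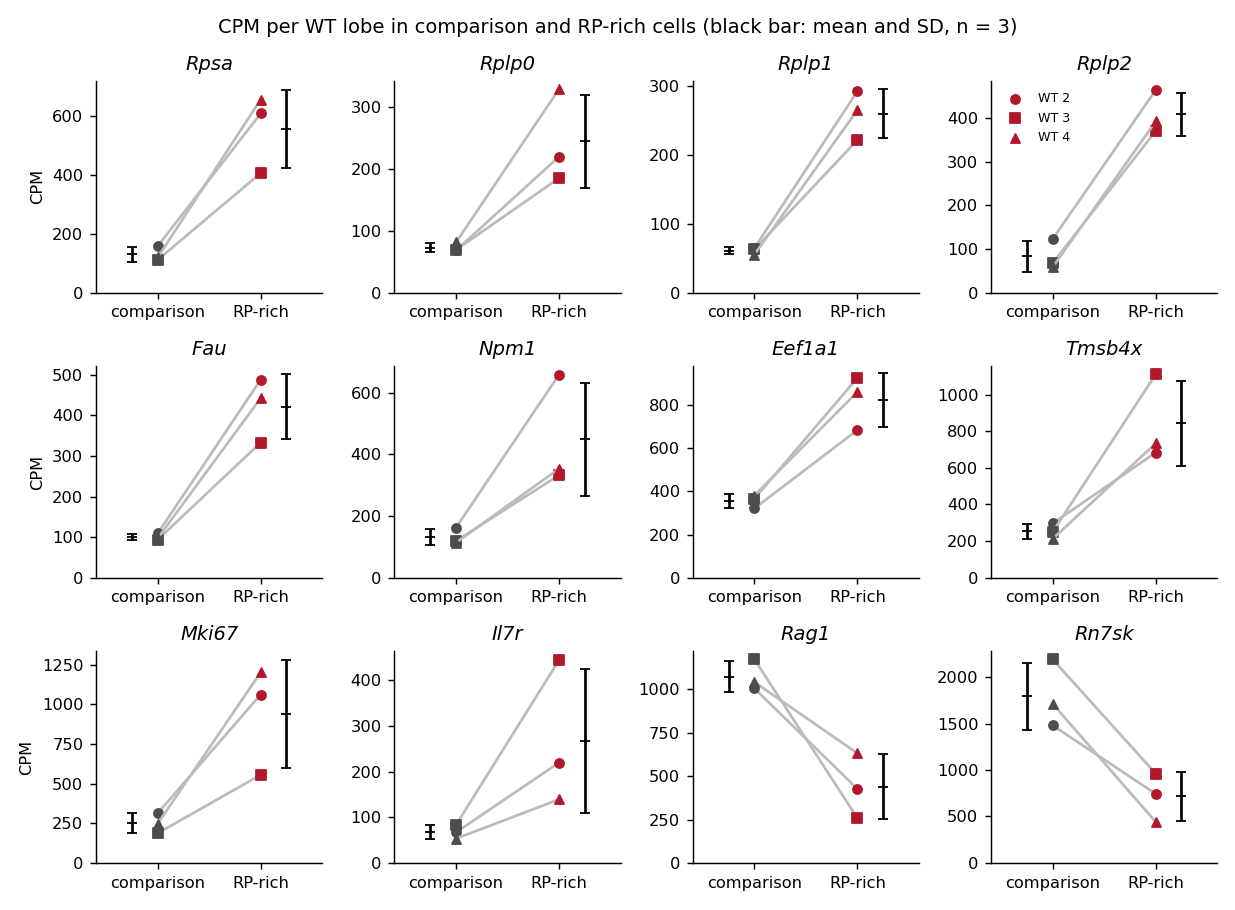
CPM of 12 genes in comparison cells (grey) and RP-rich cells (red) of WT 2, WT 3 and WT 4, joined by lobe, with mean and SD (n = 3) as black bars. The ribosomal protein genes Rpsa, Rplp0, Rplp1, Rplp2 and Fau, with Npm1, Eef1a1, Tmsb4x, Mki67 and Il7r, were above the comparison cells in each of these lobes, and Rag1 and Rn7sk below.

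The summed level of other mRNAs of the translation machinery was higher too. The list of 18 translation factors and other TOP mRNAs summed to 5393, 4551 and 4842 CPM in RP-rich cells of the WT lobes against 2466, 2246 and 2230.2, and was higher in 7 of 7 lobes. Of the 18, 4 were called higher and none lower, with a median log2 fold change of 0.78, and 9 were higher in the WT lobes. Npm1, a nucleolar chaperone of ribosome assembly, had 659, 333 and 354 against 163, 119 and 114 CPM and changed by 1.48 ± 0.34 (SE) (adjusted p = 0.00195). Eef1b2, a nucleotide exchange factor of elongation, changed by 1.63 (adjusted p = 0.000116), and the others were Eif3f (1.14, not called in the WT lobes, adjusted p = 0.076) and Eef1d (1.71).

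Eef1a1, which brings aminoacyl-tRNA to the ribosome, had 683, 925 and 859.8 against 321, 365 and 380.2 CPM. Its log2 fold change was 0.84 ± 0.39 (SE) in the 7 lobes (adjusted p = 0.176) and 0.95 ± 0.18 (SE, adjusted p = 1.19e-05) in the WT lobes. Eef2, the translocation factor, and Pabpc1, the poly(A) binding protein, likewise passed in the WT fit and missed the threshold in 7 lobes (0.92 and 0.75, adjusted p = 7.46e-05 and 0.00189, against 0.286 and 0.389 in 7 lobes). Hnrnpa1, a splicing factor with a TOP mRNA, had 183, 222 and 253 against 149, 139 and 207 CPM and did not pass in the 7 lobes (adjusted p = 0.977) or in the WT lobes (adjusted p = 0.885).

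Of 11 tested nucleolar factors of ribosome biogenesis, 3 were higher (Nolc1, Nop58 and Dkc1) and 1 was lower (Wdr12, which missed the threshold in the WT lobes, adjusted p = 0.0607), with a median of 0.36. Nop58, a core protein of box C/D particles that guide RNA methylation, had 281, 222 and 215 against 94.7, 71.0 and 78.8 CPM (1.3 ± 0.34 (SE) log2, adjusted p = 0.00719). Ncl, nucleolin, had 1464, 814 and 1328 against 706, 542 and 523 CPM and was called in the WT fit (0.85 ± 0.16 (SE, adjusted p = 1.61e-05)) but not in the 7 lobes (adjusted p = 0.688). The ribosome of mitochondria gave no call: of 49 tested mitochondrial ribosomal protein genes 0 were called in either direction by edgeR in the 7 lobes and 0 by DESeq2, 3 had an unadjusted p under 0.05, and their median was 0.13. The sum of the list was higher in 5 of 7 lobes, with 1769, 1147 and 1985 against 1374, 1368 and 1236 CPM in the WT lobes. In simulated counts the 7-lobe fit recovered 1.49% of 2-fold, 46.3% of 4-fold and 80.3% of 8-fold changes. A gene without a call may thus still differ.

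Among 16 short, abundant housekeeping and cytoskeletal mRNAs with no part in translation, 2 were called higher in the 7 lobes and 4 in the WT lobes, and none lower. They summed to 6491, 5624 and 5929.8 CPM against 3429.7, 3208 and 2825 in the WT lobes and the sum was higher in 7 of 7 lobes. B2m, the light chain of class I MHC (1.11, adjusted p = 0.0358), and Ppia, a peptidyl-prolyl isomerase (1.09, adjusted p = 0.0485), were called in the 7 lobes, and the median was 0.67. Both were higher in each WT lobe and in 4 and 5 of the 7 lobes in all, and Ppia was not called in the WT lobes (adjusted p = 0.126). Tmsb4x, thymosin beta, had 683, 1110.0 and 733 against 297, 251 and 213 CPM, with 1.13 ± 0.38 (SE) log2 in the 7 lobes (adjusted p = 0.0523) and 1.41 ± 0.18 (SE, adjusted p = 4.47e-12) in the WT lobes. Ptma, prothymosin alpha, had 2367, 1221 and 1644 against 931, 682 and 707 CPM and followed the same pattern of calls (0.309 and 8.36e-08). Actb and H3f3b did not pass in either fit.

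Nuclear genes of the respiratory chain and ATP synthase were another such group. Their sum was 4612, 3515 and 4703 CPM against 2532, 2298 and 2138, higher in 7 of 7 lobes. Of 62 tested, 14 were higher and none lower, with a median of 0.81, and in the WT lobes 9 of 73 were higher. Cox6c, a small subunit of cytochrome oxidase, changed by 1.95 (adjusted p = 3.87e-07), Cox5a by 1.73 (adjusted p = 0.000691) and Atp5b, the catalytic beta subunit of ATP synthase, by 1.14 ± 0.34 (SE) (adjusted p = 0.0252) with 281, 259 and 379 against 128, 100.5 and 116 CPM. Cox6c and Cox5a were higher in each WT lobe and in 4 and 3 of the 7 lobes in all. Ndufs4, a complex I subunit, had 281, 74.0 and 215 against 294, 287 and 248 CPM and did not pass. The mRNAs made inside mitochondria gave 0 calls of 7 tested by edgeR, 0 by DESeq2 and 0 at an unadjusted p under 0.05, and their sum was higher in 6 of 7 lobes.

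These levels also moved with the rule-gene share below the limit of 1.5%. From cells of WT 2, 3 and 4 under 0.25% to those in the bin just below the limit, held-out ribosomal proteins went from 328 to 1136 CPM, TOP mRNAs from 1938 to 3779.8, short abundant mRNAs from 2777 to 4745 and oxidative phosphorylation genes from 2156 to 3276. In the RP-rich cells at 2% and over they were at 2833, 5826, 7554 and 6076 CPM. In Mini cells the held-out genes went from 171 to 3576 CPM, with 4 cells in the top bin. Rn7sk, a small nuclear RNA that holds back the elongation factor P-TEFb, went from 2198 CPM under 0.25% to 997 just below the limit and 624 at 2% and over in WT 2, 3 and 4. With WT 1, which has no RP-rich cell, its first bin was at 4644 CPM. In WT 2, 3 and 4 the 4 lists rose from each bin to the next over all 8 bins. The bins share lobes, libraries and cells of unequal depth, and no test was made.

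**Figure D3:**
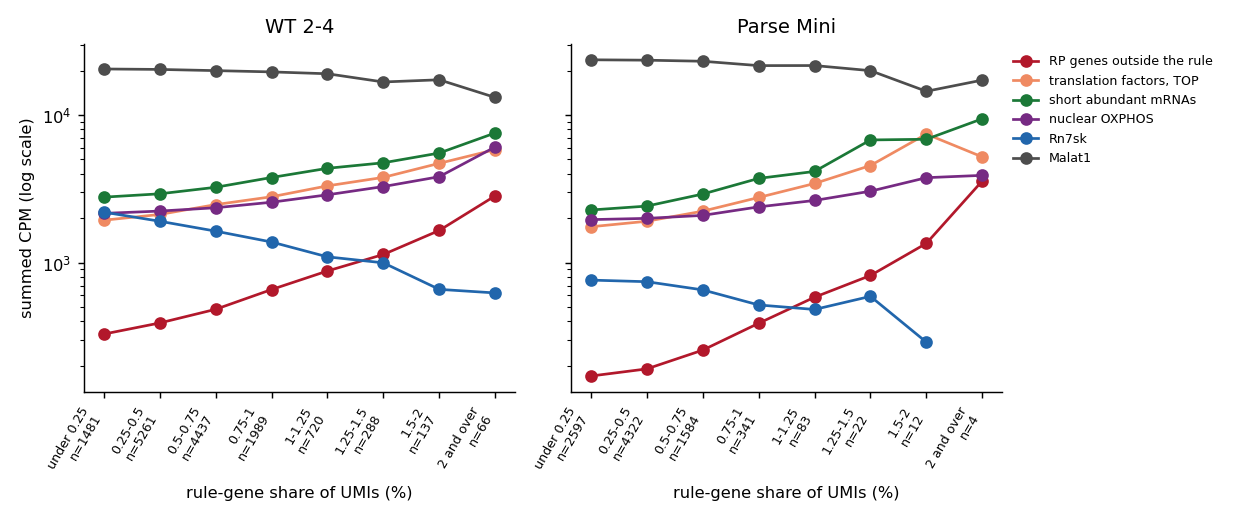
Summed CPM (log axis) of 4 gene lists, Rn7sk and Malat1 in cells of 500 to 2500 UMIs, by the share of UMIs in rule genes, for WT 2, 3 and 4 (left) and Mini (right), with the number of cells under each bin. The held-out ribosomal proteins climbed from 328 to 2833 CPM in these WT lobes and from 171 to 3576 in Mini; Rn7sk had 0 UMIs in the last Mini bin and is not drawn there.

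Calls differed with gene length. Among 145 tested genes that span under 3 kb (GENCODE annotation of GRCm38), 11.7% were higher and 2.07% lower, and among 1211 genes of 100 kb and over, 2.48% were higher and 7.10% lower. The share of lower genes was largest in the longest genes, while the share of higher genes was smallest from 30 to 100 kb (1.14%). The median log2 fold change went from 0.45 in the shortest bin to -0.62 in the longest. Higher genes had a median span of 13.0 kb, lower genes 63.4 kb and all tested genes 30.4 kb. Genes are not independent replicates, so this is a description with no p.

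**Figure D4:**
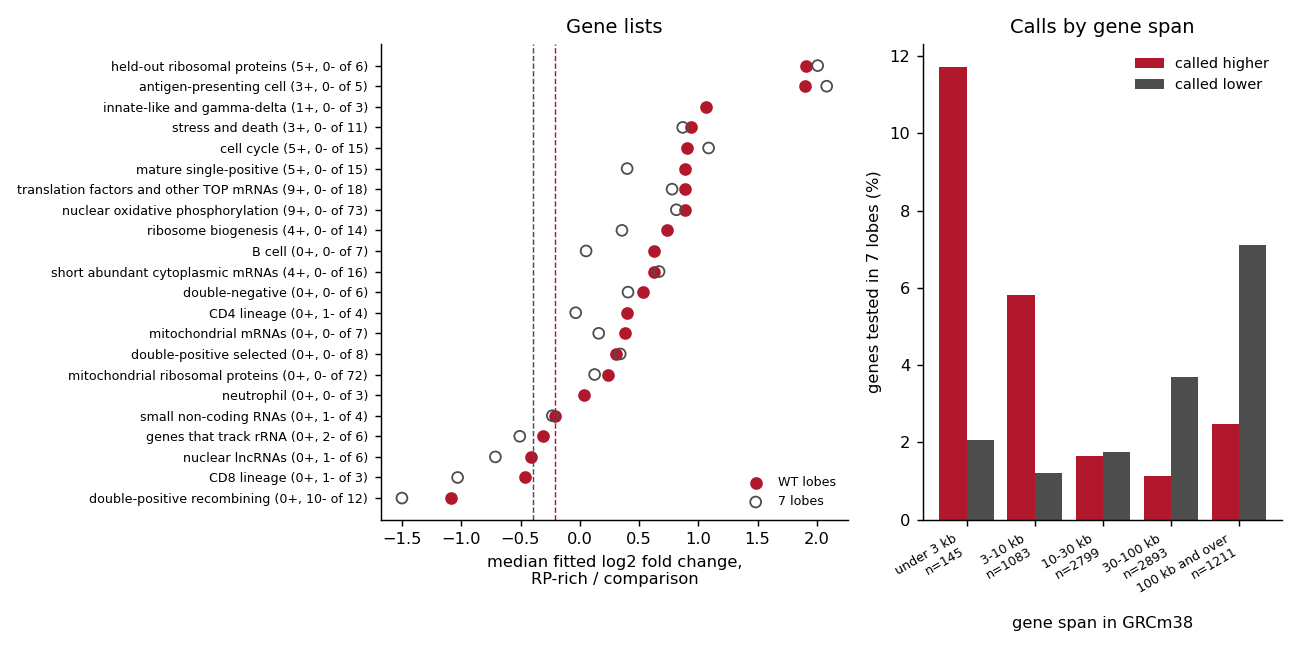
Left, median fitted log2 fold change of each gene list in the WT lobes (red) and in 7 lobes (open), with the genes called higher and lower of those tested in the WT lobes, and dashed lines at the median of all genes (-0.21 in WT lobes, -0.39 in 7 lobes). Right, percent of genes called higher and lower in 7 lobes by gene span: 11.7% of genes under 3 kb were higher, and 7.10% of those of 100 kb and over were lower.

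Markers of the main thymocyte stage were lower. The 12 genes of recombining double-positive cells summed to 8772, 5920.2 and 10064 CPM in RP-rich cells of the WT lobes against 17016, 15798 and 15121, and were lower in 7 of 7 lobes. Of the 12, 7 were called lower and none higher (median -1.5), and 10 were lower in the WT lobes. Themis, a signalling protein of selection, had 2818, 1406 and 3072 against 5996, 5079 and 5055 CPM (-2.39 ± 0.49 (SE) log2, adjusted p = 0.000258), and -1.35 ± 0.15 (SE, adjusted p = 4.45e-17) in the WT lobes. Rag1 had 427, 259 and 632 against 1006, 1174 and 1043 CPM (-2.0 ± 0.47 (SE), adjusted p = 0.00244), was lower in 6 of 7 lobes and changed by -1.37 ± 0.19 (SE, adjusted p = 1.17e-10) in the WT lobes. Cd4, the coreceptor, had 281, 444 and 405 against 674, 787 and 625 CPM (-1.86 ± 0.47 (SE), adjusted p = 0.00485), and -1.14 ± 0.20 (SE, adjusted p = 4.42e-06) in the WT lobes. With no scaling factors Themis, Rag1 and Cd4 changed by -1.30, -1.19 and -1.06, so the 7-lobe values are the largest in size of the 3 fits. Arpp21, Tcf12 and Ets2 were among the other calls, while Dntt, the terminal transferase, missed the threshold (adjusted p = 0.0552) and passed in the WT lobes (adjusted p = 0.0012). A summed level cannot separate fewer cells with a marker from less of its RNA per cell. In WT 2, 3 and 4, thinned to 500 UMIs, 85.2% of RP-rich and 96.0% of comparison cells had a UMI of the list (96.6% and 99.3% unthinned).

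Some genes of the cell cycle were higher. The list summed to 2684, 1480.1 and 2857 CPM against 889, 627 and 741 in the WT lobes and was higher in 7 of 7 lobes, and 6 of 13 tested genes were called higher and none lower (median 1.09). Mki67 had 1061, 555 and 1201 against 313, 187 and 247 CPM, which is 1.28 ± 0.40 (SE) log2 in the 7 lobes (adjusted p = 0.0331) and 1.73 ± 0.17 (SE, adjusted p = 8.49e-20) in the WT lobes. Top2a, the topoisomerase that untangles replicated DNA, had 622, 259 and 746 against 199, 125 and 175 CPM (1.41 ± 0.36 (SE), adjusted p = 0.00601). Cenpf, Rrm2, Hells and Mcm3 were the other calls, and of these Hells was not called in the WT lobes (adjusted p = 0.135). At least 3 cycle genes were seen in 58 RP-rich cells (26.5%) and in 5.04% of comparison cells. Of these, 50 of the 58 RP-rich cells and 1121 of the 1180 comparison cells also had 3 recombining markers. Within WT 2, 3 and 4 the shares with 3 cycle genes were 25.6% and 5.07%, and thinned to 500 UMIs 50.2% against 21.5% of cells had a UMI of the list. The call of Mki67 was lost without WT 2, WT 3, WT 4 or Mini 1-B, and that of Top2a without WT 2, WT 3 or WT 4.

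Some mature thymocyte genes were higher as well: 4 of 15 tested (Il7r, Il6ra, Ccr7 and Klf2) and none lower, median 0.40, with 5 in the WT lobes. Il7r, the receptor of interleukin-7, had 219.6, 444 and 139 against 67.0, 83.2 and 53.2 CPM (1.48 ± 0.34 (SE), adjusted p = 0.00149), and was higher in 7 of 7 lobes. Of the WT lobes WT 3 was highest, and the Mini lobes had 1 to 3 Il7r UMIs each. Ccr7, which guides mature cells to the medulla, changed by 1.58 (adjusted p = 0.000312) and was higher in the 3 WT lobes and 4 of 7 in all. Il6ra and Klf2 rested on 15 and 10 UMIs, and Klf2 was not called in the WT lobes (adjusted p = 0.155). Lef1 and Dgka did not pass. At least 3 of these markers were seen in 36.9% of RP-rich cells and 26.3% of comparison cells of WT 2, 3 and 4, and at 500 UMIs 67.0% against 59.1% had a UMI of the list (81.8% and 86.6% unthinned). The summed level of the list was higher in 5 and lower in 2 of the 7 lobes, both of them Mini. Among the remaining thymocyte lists, Notch3 was lower among 5 tested double-negative genes, Egr1 was higher among 8 genes of selection, and Runx3 was higher among 3 genes of the CD8 lineage. None of these 3 passed in the WT lobes (adjusted p = 0.151, 0.0503 and 0.137). The median of the CD8 lineage genes was -1.03 and their sum was lower in 5 of 7 lobes, with Cd8b1 called lower in the WT lobes (-0.85, adjusted p = 0.0117) and Cd8a at -1.08 in the 7 lobes (adjusted p = 0.118). The CD4 lineage list summed to 317, 481 and 506 against 709, 829 and 655 CPM in the WT lobes and was lower in 7 of 7 lobes. Cd4, given above and also in the double-positive list, was the only call of its 3 tested genes. Cd4 made up most of this sum, with a WT mean of 376 of 435 CPM in RP-rich and 695 of 731 in comparison cells. Zbtb7b (0.69 log2), Cd40lg (0.11) and Tnfrsf4 (1.24) did not pass in the WT lobes, on 4, 3 and 4 UMIs in all RP-rich cells.

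Few RP-rich cells carried 3 markers of another listed cell type. No neutrophil or erythroid marker had enough counts in the 7 lobes to be tested, and no RP-rich cell had 3 markers of either or of stroma. Erythroid UMIs were in 5.42% of RP-rich and 1.00% of comparison cells of WT 2, 3 and 4 (1.97% and 0.319% at 500 UMIs). Of antigen-presenting cell genes 3 of 4 tested were higher, Cd74, H2-Eb1 and H2-Ab1, which act in class II presentation. Their list summed to 183, 1184 and 126 CPM against 79.2, 83 and 49.8 in the WT lobes, and to 0 in the 4 Mini lobes, so most of it lay in WT 3, and 3 cells had at least 3 of the markers. B cell genes gave 0 calls of 3 tested by edgeR, 0 by DESeq2 and 0 at an unadjusted p under 0.05. Without the cells with 3 markers of another type, 168 genes were higher and 239 lower. Innate-like and gamma-delta markers gave 0 calls of 2 tested by edgeR and 0 by DESeq2, with 0 at an unadjusted p under 0.05. Their list summed to 73.2, 259 and 266 CPM against 40, 43.3 and 31.3 in the WT lobes, and 12.3% of RP-rich and 3.62% of comparison cells of these lobes had a UMI of it (6.40% and 1.42% at 500 UMIs). Zbtb16, their transcription factor, was higher in the WT lobes (3.64, adjusted p = 7.36e-05). It had 15 UMIs in 9 RP-rich cells of all lobes, 8 of them WT, with up to 4 UMIs in 1 cell.

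Among stress genes, Hsp90aa1, a heat shock chaperone, was the only call of 10 tested in the 7 lobes, with 903, 333 and 759 against 230.3, 162 and 165 CPM (1.47 ± 0.37 (SE), adjusted p = 0.00517). Its relative Hspa8 had 1013, 629 and 695 against 307, 239 and 249 CPM and passed in the WT fit (adjusted p = 4.06e-11, against 0.0881 in 7 lobes). Junb, an immediate-early transcription factor, also passed in the WT fit (1.24, adjusted p = 0.00628), and the p53 target Mdm2 did not pass in either. The list summed to 2306, 1739 and 1972 CPM in RP-rich cells of the WT lobes against 872, 744 and 723 and was higher in 7 of 7 lobes, and at 500 UMIs 53.7% of RP-rich and 25.6% of comparison cells of these lobes had a UMI of it. Hsp90aa1 and Hspa8 made up most of the sum in RP-rich cells of each WT lobe. Cdkn1a, Atf3, Hspa1a, Hspa1b and Ddit3 had no UMI in RP-rich cells and added nothing to the sum. The call of Hsp90aa1 was lost without WT 2, WT 3 or WT 4.

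Ribosomal RNA and a few noncoding RNAs also differed. Ribosomal RNA took a larger share of UMIs in RP-rich cells in 7 of 7 lobes, 26.9%, 26.7% and 21.6% against 25.6%, 24.9% and 20.5% in WT 2, 3 and 4, and 17.7%, 16.0%, 19.5% and 23.9% against 13.4%, 12%, 12.1% and 14.8% in the Mini lobes. The mean difference was 4.12 percentage points ± 3.11 (SD, n = 7; two-sided exact sign-flip permutation test, p = 0.0156, the smallest possible, adjusted p = 0.0260 over 5 measures), and 1.38 in the WT lobes. Ribosomal RNA is in the denominator of the rule, and Mini values rest on 1 to 7 cells a lobe.

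Malat1, a long RNA kept in the nucleus, went the other way, with 1.28%, 1.14% and 1.15% of UMIs in RP-rich cells of WT 2, 3 and 4 against 1.70%, 1.37% and 1.53%. It was lower in 7 of 7 lobes, with a mean difference of -0.627 points (exact sign-flip permutation test, adjusted p = 0.0260), and was also called by edgeR (log2 -1.60 ± 0.49 (SE), adjusted p = 0.0292), with -0.58 ± 0.14 (SE, adjusted p = 0.00122) in the WT lobes, although not with no scaling factors (-0.48, adjusted p = 0.157). Rn7sk had 744, 962 and 443 against 1480.2, 2191 and 1713 CPM (-1.94 ± 0.49 (SE), adjusted p = 0.00474) and -1.61 ± 0.17 (SE, adjusted p = 4.45e-17) in the WT lobes. Malat1 was the only call of 6 tested nuclear long noncoding RNAs, and Rn7sk the only call of 3 tested genes of the small noncoding list. Gm19951, Xist, Kcnq1ot1, Neat1, Tsix, Rpph1 and Snhg1 did not pass, and Gm19951 was higher in 6 of 7 lobes. Genes per cell were counted with rule genes and ribosomal RNA kept in, so this measure is not free of the rule that chose the cells. At a depth thinned to 500 UMIs, the number of genes per cell differed by -21.5 (lower in 7 of 7 lobes, exact permutation test, adjusted p = 0.0260), and by -4.96 in the WT lobes. Medians did not follow these means: they were 300.5, 294.5 and 295 in RP-rich cells of WT 2, 3 and 4 against 297, 294 and 298, and 391, 378, 291 and 283 against 366, 365, 365 and 354 in the Mini lobes, so that 4 of 7 lobes had a higher median in RP-rich cells. In cells of 1000 to 2500 UMIs this difference was 3.96 (adjusted p = 0.781), and those of ribosomal RNA (1.5 points, adjusted p = 0.573) and Malat1 (-0.635 points, adjusted p = 0.156) did not pass, in exact sign-flip permutation tests. RP-rich cells of that depth came from 6 lobes, where an adjusted p can pass only if at least 4 of the 5 measures reach the smallest p. A missed threshold alone thus says little of how stable a difference is. The higher adjusted p of ribosomal RNA and of genes per cell means that these 2 differences did not have 1 sign in all 6 lobes. Mitochondrial mRNA (0.0730 points higher, 5 of 7 lobes, adjusted p = 0.0781) and mapped reads per UMI (difference -0.0544, adjusted p = 0.141) did not pass.

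The 6 genes abundant enough to be named (a mean of at least 20 CPM) and called higher with the same sign in 7 of 7 lobes were Rpsa, Il7r, Npm1, Hsp90aa1, Top2a and Mki67. Under the same limits on sign and level, the 12 lower genes with the largest fitted change had 1 UMI each in all RP-rich cells: Dynlt5, Ndor1, Slc35e2, Rexo4, Carns1, Zbtb18, Samd4b, ENSMUSG00000120171, Ston2, Lamb3, Slc28a2b and 2900076A07Rik. They are given as a description only, since they met the limit on level through the comparison cells and a gene near it is likely to have no UMI, and so a lower sign, in the small Mini sums. Dynlt5, a dynein light chain gene, would have had 17.9 UMIs at the comparison level, a ratio of 0.0559 (exact Poisson interval 0.00142 to 0.312, counting error only), and the others had ratios from 0.0907 to 0.140. In the WT lobes 6 of the 12 were not called: Zbtb18, ENSMUSG00000120171, Ston2, Lamb3, Slc28a2b and 2900076A07Rik. Their fits rest on single UMIs: that of Dynlt5 ranged from -10.39 to -3.82 log2 when 1 lobe was left out. Of the 260 lower genes 15 had no UMI in RP-rich cells, and 28 of the 192 higher genes had UMIs in 10 or fewer of them.

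Near-identical copies can share reads with the rule genes. Of the higher genes 4, and of the lower genes 2, shared at least 5% of the 31-base words of their transcripts with a rule gene. They include the processed copies Rpl9-ps6 (92.3% with Rpl9), Gm10076 (82.4% with Rpl41) and Rpl7a-ps12 (12% with Rpl7a), whose calls are uncertain for that reason. The fourth was Timeless, a replication fork gene (10.3% with Rpl37a), which was not called in the WT lobes (adjusted p = 0.129).

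Whether the difference between RP-rich and comparison cells changed with the kit was tested by a class-by-kit term. Of 8174 genes, 2 (0.0245%) had a higher fold change in Mini and 58 (0.71%) a lower one, and 15 of the 58 had no UMI in Mini RP-rich cells. Both higher genes, Angpt1 (3.45 log2), an angiopoietin ligand with 34 UMIs in 10 RP-rich cells, and Rnf220 (2.74), a ubiquitin ligase, were chosen after their values were seen. DESeq2 called 0 genes in either direction, with 183 at an unadjusted p under 0.05 against 1211 for edgeR. The median log2 fold change over all genes was -2.68 in a fit on the Mini lobes alone, against -0.21 in the WT lobes. The kit term was not corrected for this shift, so the 58 against 2 is not read as a difference between kits. The Mini side rests on 16 RP-rich cells, and kit and mice cannot be told apart.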

How the data were processed

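Single-cell RNA-seq was measured with Parse split-pool kits. The authors aligned reads to mm10 with the kit's pipeline (split-pipe, version not given in the sources used here), called cells and deposited UMI counts per cell and gene; lobes were read from the deposited cell tables, in which a sample of the series is a sublibrary. The tables hold 10460 cells per WT lobe on average, with doublets not removed, and 7 of the columns in each table of cells went unused. The submitters' notes name Cell Ranger and mm10. Members and gene lists were chosen with earlier results of these data known.

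Counts of each lobe and class were summed without rule genes and Rn18s-rs5, mt-Rnr1 and mt-Rnr2, filtered by filterByExpr and tested with edgeR 4.0.16 (R 4.3.3; TMM, quasi-likelihood, Benjamini-Hochberg adjustment, called under 0.05). Scripts were tested on simulated data. Named genes were the 4 markers and the 6 highest rule genes, the 6 held-out ribosomal proteins, up to 12 called genes per direction with 1 sign in the 7 lobes with members and a mean of at least 20 CPM, and the 2 to 6 most abundant genes of each list; others were named for their role in a list or as calls of a list, after values were seen. Alternatives were DESeq2 1.42.0, RLE factors, no low-count filter, ribosomal RNA kept, members at 2.0%, cells of 1000 to 2500 UMIs, cells thinned to 500 UMIs, shares outside ribosomal RNA, wells as blocks, at most 15% mitochondrial UMIs, either kit alone and leaving out each lobe. Added after seeing the data were members at 1.0%, a rule without kinases, no scaling, removal of cells with other-type markers and values within WT 2 to WT 4. Some genes and the results that need them are not reported here.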

Additional observations from a re-analysis of the deposited data

Results flagged for a closer look

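The 4 Mini lobes hold 1 to 7 RP-rich cells each, and among 31 groups of 4 lobes examined, 5 had 1 lobe far from the others; chance alone sets about 1 in 20 such groups apart. The excess of mitochondrial mRNA in RP-rich cells was 0.318 percentage points in Mini 1-B, whose mitochondrial mRNAs summed to 8022 CPM from 52 UMIs. In Mini 2-A the nuclear oxidative phosphorylation genes summed to 7069 CPM from 15 UMIs and the CD4 lineage list to 471 CPM from 1 UMI. The B cell list summed to 233 CPM in Mini 1-A, also from 1 UMI.

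The difference between RP-rich and comparison cells changed between kits for Cd4 by -4.14 on the log2 scale, with 1 Cd4 UMI in the 16 Mini RP-rich cells. Over all genes the change was lower in Mini for 58 and higher for 2 (edgeR, adjusted p under 0.05). These values carry the downward shift of Mini fold changes, whose median over all genes was -2.68 in the Mini lobes alone.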

How the results depend on the processing

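Counts of calls moved most with the settings. Against 192 higher genes, RLE factors gave 421, no scaling 454, DESeq2 117, members at 2.0% 63, cells of 1000 to 2500 UMIs 113, cells thinned to 500 UMIs 21, shares outside ribosomal RNA 581, Mini lobes alone 5 and members at 1.0% 686 . Against 260 lower genes, DESeq2 gave 33, 1000 to 2500 UMIs 132, thinning 36, shares outside ribosomal RNA 490, wells as blocks 1064 and members at 1.0% 695, and in the WT lobes no scaling gave 167 and DESeq2 47. Leaving out 1 lobe gave 67 to 187 higher (67 without WT 2, 73 without WT 4) and 73 to 239 lower (73 without WT 2, 83 without WT 3, 107 without WT 4, 133 without Mini 1-A, 103 without Mini 1-B). The kit term gave 0 and 0 with DESeq2, 0 lower genes at 1000 to 2500 UMIs, and 0 to 3 higher and 1 to 55 lower without 1 lobe. The share of members in Mini minus WT ran from -1.19 to -0.601 points without 1 lobe.

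Held-out ribosomal proteins gave 1 call of 5 in Mini alone and 3 to 5 without 1 lobe. List medians, less that of all genes, moved in Mini alone to 4.62 (held-out), 2.90 (TOP), 2.66 (short mRNAs), 3.47 (cell cycle) and -0.13 (recombining), and with members at 1.0% to 1.26 (held-out), 0.63 (TOP) and 0.58 (oxidative phosphorylation), which also moved to 1.71 at 2.0%, 0.75 outside ribosomal RNA and 0.69 by wells. Without 1 lobe they ran from 2.26 to 2.60 (held-out), 1.11 to 1.34 (TOP), 1.16 to 1.3 (oxidative phosphorylation), 0.97 to 1.13 (short), 1.37 to 1.73 (cell cycle) and -1.29 to -1.03 (recombining). At 2.0% the differences in ribosomal RNA (3.40), Malat1 (-0.644) and genes per cell (-21.2) missed the threshold, and at 1000 to 2500 UMIs so did ribosomal RNA (1.5) and Malat1 (-0.635). Both settings leave 6 lobes with members, too few for a single measure to pass after adjustment, so a missed threshold alone says little of stability. The differences in ribosomal RNA and genes per cell at 1000 to 2500 UMIs did not have 1 sign in all 6 lobes. At 1000 to 2500 UMIs reads per UMI (0.0166) and genes per cell (3.96) changed sign. Outside ribosomal RNA, mitochondrial mRNA (0.101) and reads per UMI (-0.0666) passed. Rplp0 changed sign in Mini alone (-0.63) and Lamb3 at 1.0% (0.14). The causes were not tested. Rpsa kept its call and direction in all 29 alternatives. The median of the 6 rRNA-tracking genes was -0.51 with TMM, below that of all genes (-0.39), although their sum was higher in RP-rich cells in 7 of 7 lobes.

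Both classes were paired within each lobe, by the lobe block in edgeR and by within-lobe differences in the sign-flip tests. By the labels' replicate numbers no paired analysis was possible, because these number sublibraries, each with cells of all lobes of its kit. Precision is limited by 219 cells, 16 of them Mini.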

Other observations

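Srgn, which encodes the granule proteoglycan serglycin, had the smallest adjusted p of the WT fit, with 116 UMIs in 59 WT RP-rich cells and a log2 fold change of 2.34 (edgeR, adjusted p = 3.1e-25, chosen after its values were seen). The kit term called it lower in Mini (edgeR, -3.67, adjusted p = 0.00196), where RP-rich cells held 2 of its UMIs.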
